A study of Homo sapiens with 6 samples.

Results

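The genes described here are 10 that make, activate, carry or store polyunsaturated fatty acids: the long-chain acyl-CoA synthetases ACSL1, ACSL3, ACSL4 and ACSL5, the lysophospholipid acyltransferases LPCAT1 and LPCAT3, the desaturases FADS1 and FADS2, the elongase ELOVL5 and the fatty acid binding protein FABP5. They were taken by gene symbol, all 10 being present among the 58735 genes of the deposited table. The samples were HT1080 cells, an established line from a human fibrosarcoma. Messenger RNA of 3 wild-type (WT) samples was set against that of 3 samples in which GPR56, a receptor of the adhesion G protein-coupled class encoded by ADGRG1, was knocked out (KO) with CRISPR-Cas9. The descriptions of both genotypes name the solvent DMSO, with no dose or time. The design text also calls the manipulation a knockdown, and the number of KO clones is not given. Whether replicates came from separate cultures is not stated in the labels, so p-values measure only a spread between samples that may be technical. The series concerns GPR56 and ferroptosis, a form of cell death driven by peroxidation of polyunsaturated membrane lipids. The comparison asks which mRNA levels of this lipid pathway differed when GPR56 was targeted.

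A polyunsaturated fatty acid enters a phospholipid in steps. FADS2 and FADS1 insert double bonds and ELOVL5 lengthens the chain between them, so that plant-derived precursors become arachidonic acid and related chains. FABP5 carries fatty acids through the aqueous cytosol, an acyl-CoA synthetase joins the chain to coenzyme A, and a lysophospholipid acyltransferase places it in the membrane. ACSL4 prefers arachidonic and adrenic acid and LPCAT3 prefers polyunsaturated acyl-CoA; both are known as promoters of ferroptosis. ACSL3 is known for activating oleic acid, which opposes it, and LPCAT1 mainly transfers saturated chains, as in lung surfactant.

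Levels are FPKM, read numbers scaled by exonic length and library size, as the authors deposited them. The libraries held 16410352 to 16461752 reads in WT and 16955111 to 17276269 in KO, as recovered from the FPKM values, and a read in a gene of 1 kb was worth 0.0581 to 0.0602 FPKM. The targeted ADGRG1 was at 6.51 ± 0.41 FPKM in WT and at 2.60 ± 0.07 FPKM in KO (SD, n = 3 each; log2 fold change -1.06, limma adjusted p = 6.2e-05). All 7 mesenchymal markers examined had a mean over the 6 libraries of at least 1 FPKM, with a summed level of 700.8 to 721.0 FPKM in WT and 794.7 to 881.0 FPKM in KO. No epithelial (of 5), leukocyte (of 4), endothelial (of 3) or hepatocyte (of 3) marker reached that mean, although the endothelial marker PECAM1 was at 1.43, 1.08 and 1.18 FPKM in KO, against 0.289 to 0.356 FPKM in WT. Their summed levels in WT and KO were 0.345 to 0.396 and 0.901 to 1.005 FPKM (epithelial), 0 to 0.0729 and 0.104 to 0.406 FPKM (leukocyte), 0.289 to 0.379 and 1.37 to 1.57 FPKM (endothelial), and 0.0422 to 0.253 and 0 to 0.122 FPKM (hepatocyte). An epithelial, a leukocyte and a hepatocyte marker were at 0 in all 6 libraries. The mesenchymal markers did not move together: VIM and COL5A1 had lower means in KO, and FN1, SPARC, CD44, S100A4 and COL6A1 had higher ones.

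FADS1 and FADS2 are neighbours on chromosome 11, on opposite strands, and ACSL4 and LPCAT1 had the largest differences among the tested activating and acylating enzymes. The RefSeq windows used here include a pair of FADS2 start sites, 800 and 599 bases from that of FADS1, and the farther one is shown. Whether either is the main FADS2 start was not examined, and start sites outside the windows used were not searched. The 300 bases around a start site (250 before, 50 after; RefSeq, GRCh38.p14) of these 4 genes are shown for that reason, each 5′ to 3′ on the gene's own strand. Capitals mark matches on either strand to the GC box GGGCGG, which reads CCGCCC on the other strand, the CCAAT box CCAAT or the sterol response element TCACNCCAC. The windows are chr11:61816954-61817253 on the minus strand for FADS1 and chr11:61815953-61816252 on the plus strand for FADS2. For ACSL4 and LPCAT1 they are chrX:109733208-109733507 and chr5:1523911-1524210, both on the minus strand.
FADS1: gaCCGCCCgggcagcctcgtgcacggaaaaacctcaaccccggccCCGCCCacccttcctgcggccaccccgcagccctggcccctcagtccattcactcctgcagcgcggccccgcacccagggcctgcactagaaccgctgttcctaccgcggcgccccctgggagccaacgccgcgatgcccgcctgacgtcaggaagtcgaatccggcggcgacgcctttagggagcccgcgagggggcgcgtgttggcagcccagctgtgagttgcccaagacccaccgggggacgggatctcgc
FADS2: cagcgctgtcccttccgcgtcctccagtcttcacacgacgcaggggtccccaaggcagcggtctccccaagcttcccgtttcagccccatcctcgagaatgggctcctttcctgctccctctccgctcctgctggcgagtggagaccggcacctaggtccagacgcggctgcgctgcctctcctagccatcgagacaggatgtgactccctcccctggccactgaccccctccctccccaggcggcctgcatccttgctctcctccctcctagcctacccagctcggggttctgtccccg
ACSL4: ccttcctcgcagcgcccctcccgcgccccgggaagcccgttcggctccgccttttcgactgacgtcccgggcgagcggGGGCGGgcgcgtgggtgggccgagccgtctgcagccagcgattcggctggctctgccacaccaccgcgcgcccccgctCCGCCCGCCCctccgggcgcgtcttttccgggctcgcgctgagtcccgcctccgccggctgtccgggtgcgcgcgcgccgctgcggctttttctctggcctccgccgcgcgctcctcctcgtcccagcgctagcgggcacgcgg
LPCAT1: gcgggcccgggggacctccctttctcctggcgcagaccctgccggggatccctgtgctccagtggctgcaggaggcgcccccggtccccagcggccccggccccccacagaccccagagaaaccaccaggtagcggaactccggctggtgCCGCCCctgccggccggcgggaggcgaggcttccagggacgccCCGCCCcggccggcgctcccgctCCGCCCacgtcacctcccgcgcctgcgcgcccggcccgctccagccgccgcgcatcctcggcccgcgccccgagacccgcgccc
The windows had a GC content of 72% in FADS1, 66.7% in FADS2, 77.7% in ACSL4 and 80% in LPCAT1. The FADS1 window held 2 GC boxes, and those of ACSL4 and LPCAT1 held 3 each; in ACSL4, 2 of them overlap in a common run of capitals. The FADS2 window shown held none of the motifs searched, while the window of the nearer FADS2 start site (chr11:61816154-61816453) held 1 CCAAT box and 1 GC box. RefSeq windows were used for 9 of the 10 genes, 15 windows in all. Of these, 8 held a GC box, 5 a CCAAT box and 1, of ACSL1, a sterol response element. In 35116 windows of all genes the shares were 45.0%, 34.6% and 1.13%. The other motifs searched were the E-box CACGTG, the antioxidant response element TGACNNNGC and the amino acid response element TGATGNAA. They were in 1 (ELOVL5), 2 (ACSL1 and ACSL5) and 0 of the 15 windows, against 7.26%, 13.4% and 3.62% of all windows. A match is a description of the letters only.

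Between the genotypes, the genes did not move in 1 direction. FADS1 and FADS2 rose in KO, while ACSL3, ACSL4, LPCAT1, ELOVL5 and FABP5 fell; ACSL1 and LPCAT3 did not pass the test, and ACSL5 was too low to be tested. A gene was tested if its mean over the 6 libraries was at least 1 FPKM, and called at a limma adjusted p under 0.05. Thus 2 of 9 tested members were higher and 5 of 9 were lower, where over all 12000 tested genes 43.4% were called, 21.0% higher and 22.4% lower. The median log2 fold change (KO minus WT, of FPKM + 1) was -0.31 over the 9 members and -0.01 over all tested genes. The WT and KO libraries did not overlap for 9 of the 10 members, ACSL1 being the exception, and for 54.7% of all tested genes. In this bulk comparison of a cell line, fewer cells of a kind and less RNA per cell cannot be told apart.

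**Figure D1:**
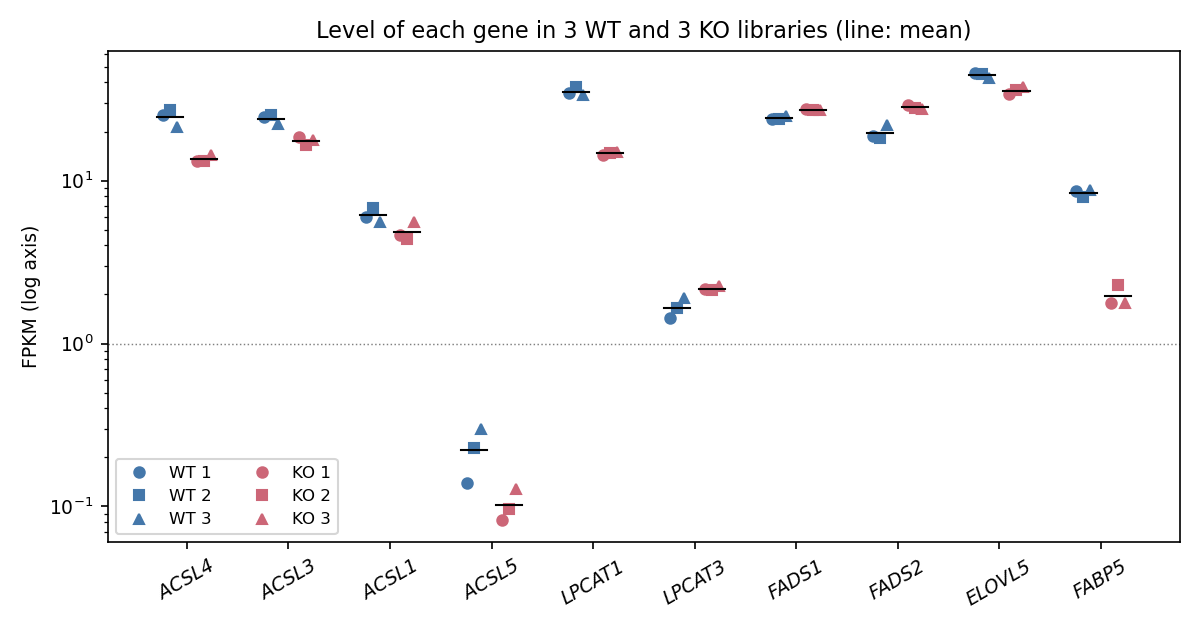
FPKM of each of the 10 genes (log axis) in WT (blue) and KO (red) libraries, with a symbol for each library number and a line at each group's mean; the dotted line is 1 FPKM, the limit for testing. FABP5, LPCAT1 and ACSL4 have the widest gaps with KO below WT among the tested genes, FADS2 has KO above WT, and ACSL1 overlaps.

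Among the synthetases, ACSL4 (ENSG00000068366, minus strand, chrX:109624244-109733403) reached 25.4, 27.1 and 21.5 FPKM in WT 1, 2 and 3, against 13.3, 13.1 and 14.4 FPKM in KO 1, 2 and 3. Every KO library lay below every WT library, and WT 3 was the lowest WT value. Its mean dropped 1.82-fold, from 24.7 ± 2.9 to 13.6 ± 0.7 FPKM (SD, n = 3 in this and all later means). The log2 fold change was -0.81 (SE 0.09, limma adjusted p = 0.000654). Of all tested genes, 6.06% differed by at least as much in either direction. ACSL3 (ENSG00000123983, plus strand, chr2:222860934-222944639), which is found on lipid droplets and the endoplasmic reticulum, was at 24.5, 25.3 and 22.2 FPKM in WT and 18.4, 16.6 and 17.8 FPKM in KO. The genotypes again did not overlap, and the mean fell 1.36-fold, from 24.0 ± 1.6 to 17.6 ± 0.9 FPKM (log2 fold change -0.43, SE 0.07, limma adjusted p = 0.00310). With each library's trend with GC content and length removed, the log2 fold change was -0.14 for ACSL3 (adjusted p = 0.0492) and -0.51 for ACSL4 (0.000285). The 4 tested neighbours of ACSL3 within 1 Mb had a median log2 fold change of -0.33, from -0.70 to 0.13, with 0 higher and 2 lower.

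ACSL1 (ENSG00000151726, minus strand, chr4:184755595-184826818), the synthetase best known from liver, fat and heart, was at 5.96, 6.82 and 5.54 FPKM in WT and 4.64, 4.37 and 5.55 FPKM in KO. KO 3 lay just above WT 3, so the genotypes overlapped, and the means of 6.11 ± 0.65 and 4.85 ± 0.62 FPKM did not differ past the threshold (log2 fold change -0.28, SE 0.10, limma adjusted p = 0.0580). ACSL1 was called lower without WT 3 (log2 fold change -0.34, adjusted p = 0.0447), without KO 3 (-0.37, adjusted p = 0.0286) and with limma-voom on the recovered reads (-0.37, adjusted p = 0.0161). ACSL5 (ENSG00000197142, plus strand, chr10:112374018-112428380), an enzyme of intestine and liver, was barely detected, at 0.140, 0.227 and 0.298 FPKM in WT and 0.0826, 0.0961 and 0.128 FPKM in KO. These values rest on 10, 16 and 21 reads in WT and 6, 7 and 9 reads in KO. The sums, 47 reads (95% Poisson interval 34.5 to 62.5) and 22 reads (13.8 to 33.3), cover counting error only, and with no filter on low genes the difference did not pass the test (log2 fold change of FPKM + 1 -0.15, limma adjusted p = 0.168). The KO mean was 2.17-fold lower without the added 1, and limma-voom on the recovered reads gave -1.06 (adjusted p = 0.130).

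The balance among the 4 synthetases differed as well as their sum. Together they reached 55.9, 59.4 and 49.5 FPKM in WT and 36.4, 34.1 and 37.8 FPKM in KO, a KO to WT ratio of 0.657. ACSL4 held 45.4, 45.7 and 43.3% of that sum in WT and 36.4, 38.4 and 37.96% in KO. Its share was thus lower in every KO library, by 7.17 percentage points on average (exact permutation p = 0.1, the smallest that 3 against 3 libraries allow, two-sided; adjusted over 5 within-library values, 0.1). ACSL3 took 43.7% of the sum in WT and 48.7% in KO, ACSL1 11.1% and 13.4%, and ACSL5 0.411% and 0.282%. The log2 ratio of ACSL4 to ACSL3 was 0.05, 0.10 and -0.05 in WT, against -0.47, -0.34 and -0.31 in KO. ACSL4 and ACSL3 were therefore near equal in WT, and ACSL4 was below ACSL3 in each KO library (exact permutation p = 0.1, adjusted 0.1). The sum, the shares and this ratio were not recomputed with the GC content and length correction. That correction brought the log2 fold change of ACSL3 from -0.43 to -0.14 and that of ACSL4 from -0.81 to -0.51.

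**Figure D2:**
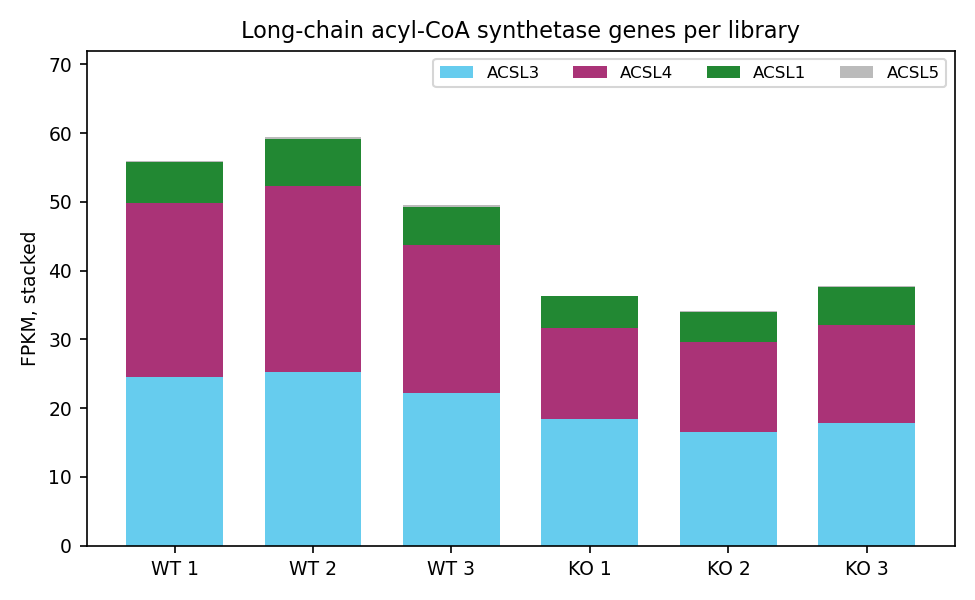
Stacked FPKM of ACSL3, ACSL4, ACSL1 and ACSL5 in each of the 6 libraries. The stacks reach 49.5 to 59.4 FPKM in WT and 34.1 to 37.8 FPKM in KO, and the ACSL4 layer shrinks from 43.3 to 45.7% of the stack to 36.4 to 38.4%. Levels are as deposited, without the GC content and length correction.

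Of the acyltransferases, LPCAT1 (ENSG00000153395, minus strand, chr5:1456480-1523977) was at 34.7, 37.5 and 33.4 FPKM in WT and 14.5, 14.8 and 15.04 FPKM in KO. The KO libraries lay close together and far below all WT libraries. The mean fell from 35.2 ± 2.1 to 14.8 ± 0.3 FPKM, 2.39-fold (log2 fold change -1.20, SE 0.06, limma adjusted p = 2.9e-05), a difference that 1.88% of all tested genes reached or exceeded. None of the 13 tested neighbours within 1 Mb changed as much: their log2 fold changes ran from -0.44 to 0.38, with 2 higher and 2 lower.

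LPCAT3 (ENSG00000111684, minus strand, chr12:6976186-7018510) was low, at 1.44, 1.65 and 1.90 FPKM in WT and 2.15, 2.12 and 2.26 FPKM in KO, from 115 to 149 and 172 to 177 reads. All KO libraries were above all WT libraries, but the difference of means, 1.66 ± 0.23 and 2.17 ± 0.07 FPKM, missed the threshold (log2 fold change 0.26, SE 0.09, limma adjusted p = 0.0528). It passed without WT 3 (0.32, adjusted p = 0.0278) and with quantile normalization (0.28, adjusted p = 0.0423), and came to 0.15 (0.172) with the GC content and length correction. Its 41 tested neighbours within 1 Mb had a median log2 fold change of 0.20, with 16 higher and 2 lower. Exons of EMG1, a ribosome biogenesis methyltransferase on the opposite strand, cover 3100 of the 4725 exonic bases of LPCAT3, or 65.6%. EMG1 had means of 15.5 ± 0.8 (WT) and 13.6 ± 0.6 FPKM (KO; log2 fold change -0.17, limma adjusted p = 0.0577), the opposite sign to LPCAT3. EMG1 was called lower with the GC content and length correction (adjusted p = 0.00718) and with limma-voom (0.0253). The strand setting of the counting is not given in the sources used here, so reads from the shared bases cannot be assigned to either gene with certainty.

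LPCAT1 outweighed LPCAT3 in every library, but by less in KO. The log2 ratio of LPCAT1 to LPCAT3 was 4.59, 4.50 and 4.14 in WT, against 2.75, 2.80 and 2.74 in KO, lower in KO by 1.65 on average (exact permutation p = 0.1, adjusted 0.1). The summed level of both genes was 36.9 ± 2.0 FPKM in WT and 16.9 ± 0.4 FPKM in KO, a ratio of 0.459. The ratio and the sum use the LPCAT3 level as deposited, which is uncertain because of the exons shared with EMG1.

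The desaturases were the members called higher in KO. LPCAT3 had a larger KO to WT ratio of means than FADS1 (1.31 against 1.13) but missed the threshold. FADS2 (ENSG00000134824, plus strand, chr11:61792980-61867354), the delta-6 desaturase that opens the pathway, was at 18.9, 18.1 and 21.8 FPKM in WT and 29.1, 28.1 and 27.3 FPKM in KO. WT 3 was the highest WT library and still below every KO library. The mean rose from 19.6 ± 1.9 to 28.2 ± 0.9 FPKM, 1.44-fold (log2 fold change 0.51, SE 0.08, limma adjusted p = 0.00233). FADS1 (ENSG00000149485, minus strand, chr11:61799625-61829318), the delta-5 desaturase that makes arachidonic acid, was at 23.8, 23.7 and 24.995 FPKM in WT and 27.5, 27.1 and 27.0 FPKM in KO. The genotypes did not overlap, and the mean rose from 24.2 ± 0.7 to 27.2 ± 0.3 FPKM, 1.13-fold (log2 fold change 0.17, SE 0.05, limma adjusted p = 0.0412). In 62.4% of all tested genes the difference was at least this large.

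The FADS1 call depended on the libraries included. It was lost without WT 1 (limma adjusted p = 0.150), WT 2 (0.0814), KO 1 (0.109), KO 2 (0.121) or KO 3 (0.0940), and with quantile normalization (0.0523) or limma-voom (0.0866). FADS2 kept its call and direction in all 14 alternatives run. The FADS1 gene lies within the outermost limits of FADS2 on the other strand, and the pair share 490 exonic bases, 4.79% of FADS1 and 4.44% of FADS2. FEN1, a DNA repair nuclease that overlaps FADS2 by 49 exonic bases, was at 117.3 and 117.5 FPKM in WT and KO. FADS1 had 42 tested neighbours within 1 Mb, with a median log2 fold change of 0.07 and 13 higher and 4 lower. FADS1 and FADS2 changed by unequal amounts: their log2 ratio, FADS1 to FADS2, was 0.33, 0.39 and 0.20 in WT, against -0.08, -0.05 and -0.02 in KO (exact permutation p = 0.1, adjusted 0.1). Per length, FADS1 was the more abundant in every WT library. In KO the genes were near equal, with FADS2 slightly above FADS1 in each library and their ranges overlapping between libraries.

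ELOVL5 (ENSG00000012660, minus strand, chr6:53267398-53349179), the elongase that works between FADS2 and FADS1, moved the other way. It was at 45.7, 45.3 and 42.4 FPKM in WT and 33.8, 35.9 and 37.3 FPKM in KO, with no overlap. The mean fell from 44.5 ± 1.8 to 35.7 ± 1.8 FPKM, to 0.802 of the WT level (log2 fold change -0.31, SE 0.06, limma adjusted p = 0.00718), and -0.17 (0.0229) with the GC content and length correction. It remained the most abundant of the 10 genes in both genotypes. The log2 ratio of FADS2 to ELOVL5 was -1.28, -1.32 and -0.96 in WT, against -0.22, -0.36 and -0.45 in KO, 0.85 higher in KO on average (exact permutation p = 0.1, adjusted 0.1). This ratio was not recomputed with the GC content and length correction. That correction brought the log2 fold change of FADS2 from 0.51 to 0.38 and that of ELOVL5 from -0.31 to -0.17.

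**Figure D3:**
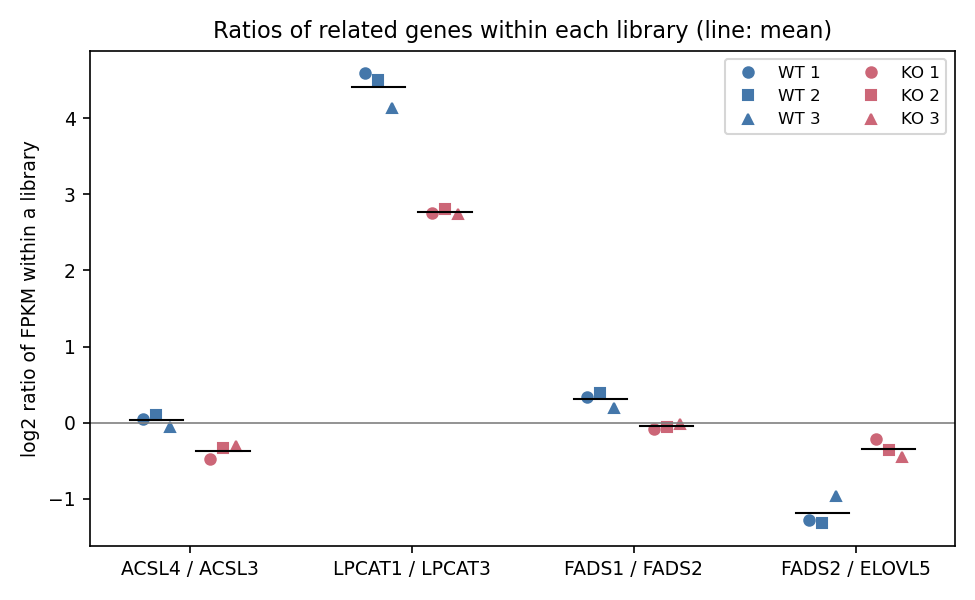
Log2 ratio of FPKM of related genes within each library, WT in blue and KO in red, with lines at the group means. All 4 ratios separate the genotypes: ACSL4 to ACSL3, LPCAT1 to LPCAT3 and FADS1 to FADS2 are lower in KO, and FADS2 to ELOVL5 is higher. No ratio was recomputed with the GC content and length correction.

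FABP5 (ENSG00000164687, plus strand, chr8:81280363-81284777), the epidermal-type fatty acid binding protein, which also delivers ligands to the nuclear receptor PPARD, had the largest difference of the 10 genes. Its level was 8.65, 7.92 and 8.74 FPKM in WT, against 1.77, 2.30 and 1.77 FPKM in KO. No KO library came near a WT library, and KO 2 was the highest of the KO values. The mean fell from 8.44 ± 0.45 to 1.94 ± 0.30 FPKM, 4.34-fold (log2 fold change -1.68, SE 0.09, limma adjusted p = 3.0e-05), from 880 reads in WT to 206 in KO. Of all tested genes, 0.70% differed by at least as much. The 8 tested neighbours within 1 Mb had a median log2 fold change of -0.26, with 0 higher and 3 lower, and none fell below -0.60.

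FABP5 has many processed pseudogenes, intronless copies whose reads can be confused with its own. FABP5P7, on chromosome 11, was at 8.17, 6.67 and 9.35 FPKM in WT and 0.864, 1.87 and 1.64 FPKM in KO, from 164 and 30 reads. It fell with FABP5 (log2 fold change -1.90, limma adjusted p = 0.00031). FABP5P7 reads amounted to 18.6 ± 2.2% of FABP5 reads in WT and 14.5 ± 4.4% in KO. The summed reads of both genes, as a share of all reads, were 4.60-fold lower in KO, a log2 ratio of -2.20 against -2.15 for FABP5 reads alone. The antisense RNA AC009902.2 shares 94 exonic bases with FABP5, 4.53% of its exons, and fell from 3.01 ± 0.41 to 1.74 ± 0.25 FPKM (log2 fold change -0.55, limma adjusted p = 0.00601).

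The order of the levels shifted between genotypes. In WT it was ELOVL5, LPCAT1, ACSL4, FADS1, ACSL3, FADS2, FABP5, ACSL1, LPCAT3 and ACSL5, with overlapping libraries between ACSL4, FADS1 and ACSL3 and between ACSL4 and FADS2. In KO it was ELOVL5, FADS2, FADS1, ACSL3, LPCAT1, ACSL4, ACSL1, LPCAT3, FABP5 and ACSL5, with overlaps between FADS2 and FADS1 and between LPCAT3 and FABP5. LPCAT1 went from the second to the fifth place.

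Base composition moved with genotype in these libraries, and the members' differences were recomputed with its trend removed. Over 11992 tested genes, Spearman's rho between a gene's GC content and its log2 deviation from the mean of the libraries was -0.40, -0.62 and -0.01 in WT, against 0.46, 0.44 and 0.23 in KO. ACSL4 and ACSL3, with 37.4% and 38.1% GC in their longest transcripts, are the most AT-rich of the 10, and FADS2, with 58.6%, is the most GC-rich. After each library's trend with GC content and length was removed, the values of ACSL3, ACSL4, ELOVL5 (41.7% GC) and LPCAT3 (52.8% GC) shrank by more than 1.5 times, and the call of no member changed. LPCAT1 (53.7% GC) and FABP5 (48.4% GC) were larger after correction, at -1.30 and -1.75. FADS2 came to 0.38 (limma adjusted p = 0.000756), FADS1 to 0.12 (0.0366) and ACSL1 to -0.23 (0.0531).

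**Figure D4:**
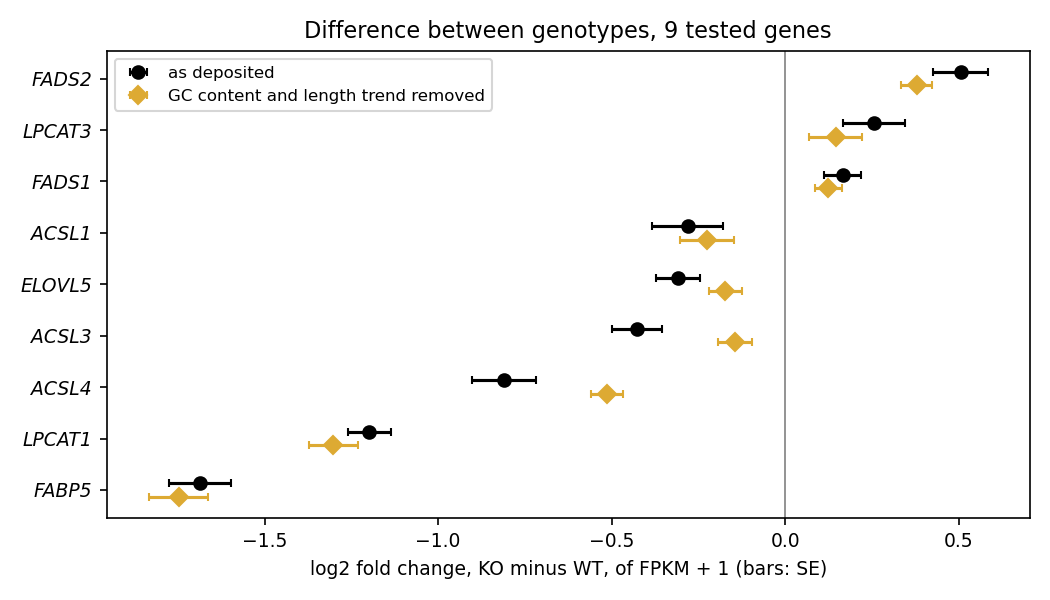
Log2 fold change, KO minus WT, of FPKM + 1 for the 9 tested genes, as deposited (black) and after removal of each library's trend with GC content and length (yellow); bars are the SE. ACSL3 moves from -0.43 to -0.14 and ACSL4 from -0.81 to -0.51, while LPCAT1 and FABP5 move away from 0.

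WT 3 stood nearest to KO among the WT libraries. For 8 of the 10 members it was the WT library closest to the KO mean, the exceptions being ACSL5 and FABP5, and this held for 48.2% of all tested genes. Without WT 3, all 9 tested members were called, 3 higher and 6 lower, where 5372 of all 12000 tested genes were called, 2657 higher and 2715 lower.

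Genes with the profile most like a member's over the 6 libraries were found by Pearson correlation of log2(FPKM + 1) among tested protein-coding genes, as a description in which all points share the libraries and the genotype difference. For ACSL4 they were UHRF1BP1L, LYRM7 and NAE1, for LPCAT1 they were SH2D4A, FGF5 and DNAJA1, and for FABP5 they were ANK2, ZNF462 and IFI6, all with r of about 0.999. Such likeness was common: 20.2%, 19.2% and 16.0% of the genes had r above 0.9 with ACSL4, LPCAT1 and FABP5.

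Among 166 other genes of lipid handling in 10 lists, 99 were tested, of which 35 were higher, 17 lower and 47 not past the threshold, with a median log2 fold change of 0.05. Over all tested genes 21.0% were higher and 22.4% lower. Of 11 other acyl-CoA synthetases and fatty acid transport proteins, 5 were tested and 2 rose. ACSF2, a mitochondrial medium-chain synthetase, rose from 1.82 ± 0.17 to 4.201 ± 0.264 FPKM (log2 fold change 0.88, limma adjusted p = 0.00025), and the transport protein SLC27A1 from 2.09 ± 0.27 to 4.33 ± 0.44 FPKM (0.79, 0.00089). The remaining family member ACSL6 had 1 read in WT and 0 in KO. Of 17 other acyltransferases 16 were tested, and 3 rose and 3 fell, with 1 higher and 2 lower without WT 1, WT 2, KO 1 or KO 2. The counts were 4 higher and 4 lower without WT 3, and 2 higher and 5 lower with the GC content and length correction. LPGAT1, which acylates lysophosphatidylglycerol, fell from 15.7 to 10.5 FPKM (-0.53, 0.00094), and the cardiolipin remodelling LCLAT1 from 3.51 to 2.28 FPKM (-0.46, 0.0042). LPCAT4 rose from 11.5 to 15.7 FPKM (0.41, 0.0050). AGPAT1, an enzyme of phosphatidic acid synthesis, rose from 8.55 to 10.5 FPKM (0.27, 0.0206). Its call was lost without WT 1 (0.0608), WT 2 (0.0526), KO 1 (0.0701) or KO 2 (0.0727) and with the GC content and length correction (0.0986). MBOAT7, which loads arachidonate into phosphatidylinositol, was at 36.7 and 36.1 FPKM (-0.02, 0.886), and with that correction was called lower (-0.17, 0.0222). The same correction brought LPGAT1 to -0.26, LCLAT1 to -0.21 and LPCAT4 to 0.27, all still called.

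Desaturation and elongation outside the members gave 4 higher and 3 lower of 12 tested genes among 16, where 21.0% and 22.4% of all tested genes were. The stearoyl-CoA desaturases SCD and SCD5, which make monounsaturated chains, rose from 164.6 ± 7.2 to 212.2 ± 13.6 FPKM (log2 fold change 0.36, limma adjusted p = 0.0063) and from 9.90 ± 0.33 to 14.1 ± 0.2 FPKM (0.47, 0.00069). TECR, the last reductase of each elongation cycle, rose from 17.8 to 24.1 FPKM (0.41, 0.0050). ELOVL6, which lengthens saturated and monounsaturated chains, fell from 8.26 to 5.80 FPKM (-0.45, 0.0038). FADS3 rose from 9.75 to 12.9 FPKM (0.37, 0.0128), a call lost without WT 1 (0.0505). ELOVL2, the elongase of longer polyunsaturated chains, had 2.09 ± 0.27 and 1.61 ± 0.19 FPKM and did not pass (-0.24, 0.0890). With the GC content and length correction ELOVL6 came to -0.26, FADS3 to 0.25 and ELOVL2 to -0.04. The count of lower genes was 2 without WT 2, KO 1 or KO 2.

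Of 19 other carriers, 7 were tested, and 3 rose and 3 fell, with 1 lower without KO 2 and 1 lower with the GC content and length correction. For these and the thioesterases below, the shares over all tested genes were 21.0% higher and 22.4% lower. The retinoic acid carrier CRABP2 rose from 1.79 ± 0.35 to 4.67 ± 1.14 FPKM (log2 fold change 1.01, limma adjusted p = 0.0027), and the acyl-CoA binding proteins ACBD4 and ACBD6 from 0.813 to 1.80 FPKM (0.63, 0.0027) and from 6.52 to 8.69 FPKM (0.37, 0.0066). ACBD5, a tether at peroxisomes, fell from 9.56 ± 0.52 to 5.87 ± 0.07 FPKM (-0.62, 0.00035). The fatty acid translocase CD36 had 4 reads in WT and 0 in KO. The acyl-CoA thioesterases, which undo activation, gave 2 higher and 1 lower of 6 tested among 12. ACOT8 rose from 3.63 to 5.49 FPKM (0.49, 0.0027) and ACOT2 fell from 3.66 to 2.40 FPKM (-0.45, 0.0028). ACOT7, which prefers arachidonoyl-CoA, rose from 48.8 to 60.9 FPKM (0.31, 0.0063), and the call was lost with the GC content and length correction (0.11, 0.268).

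Among 22 phospholipases and related lipases, 11 were tested, 4 rose and 0 fell, where 21.0% and 22.4% of all tested genes did. With the GC content and length correction 5 were higher and 1 lower. PAFAH1B3 rose from 19.1 to 28.5 FPKM (log2 fold change 0.55, limma adjusted p = 0.00064), the triglyceride lipase PNPLA2 from 22.3 to 31.3 FPKM (0.47, 0.0010) and PNPLA6 from 15.9 to 22.0 FPKM (0.45, 0.0021). LYPLA2 rose from 54.3 to 70.3 FPKM (0.37, 0.0153), a call lost without KO 1 (0.0518) or KO 2 (0.0585). Corrected in that way, PAFAH1B3 came to 0.34, PNPLA2 to 0.25, PNPLA6 to 0.27 and LYPLA2 to 0.16, all still called. PLA2G12A (-0.09, 0.564), PLA2G15 (-0.12, 0.159), PLA2G16 (0.15, 0.287) and PNPLA8 (-0.08, 0.544), named after their values were seen, did not pass. With the correction PLA2G15 was called lower (-0.29, 0.0170) and PNPLA8 higher (0.24, 0.0229). The arachidonate-selective PLA2G4A was under the limit for testing, with 0.505 and 0.451 FPKM. Of 15 oxygenating enzymes only 3 were tested and 1 rose: LTA4H, an enzyme of leukotriene synthesis, from 7.33 ± 0.37 to 13.5 ± 0.2 FPKM (0.80, 0.00012). The lipoxygenase ALOX15 had 0 reads in all 6 libraries. POR, an oxidoreductase that can start lipid peroxidation, had 12.7 and 14.8 FPKM and did not pass (0.21, 0.0656). It passed without WT 3 (0.28, 0.0134) and came to 0.04 (0.617) with the GC content and length correction.

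In storage, 1 rose and 3 fell of 8 tested among 15, where 21.0% and 22.4% of all tested genes did. The balance depended on the limit for testing: 3 were higher and 3 lower with no filter, and 1 and 1 with a filter at 5 FPKM. It was 2 higher and 3 lower without KO 1. The droplet coat gene PLIN3 rose from 43.4 to 60.3 FPKM (log2 fold change 0.47, limma adjusted p = 0.0026), and MGLL, the monoglyceride lipase, fell from 1.95 to 1.10 FPKM (-0.49, 0.0034). SOAT1, which esterifies cholesterol, fell from 12.8 to 8.98 FPKM (-0.47, 0.0113). ABHD5, the PNPLA2 coactivator, fell from 4.49 to 3.12 FPKM (-0.41, 0.0103), a call lost with the GC content and length correction (-0.11, 0.163), which also brought SOAT1 to -0.25 and PLIN3 to 0.29. In oxidation, 8 rose and 2 fell of 19 tested among 23, where 21.0% and 22.4% of all tested genes did. With the GC content and length correction 9 were higher and 1 lower. The higher count was 4 without WT 1 or KO 2, 5 without KO 3, and 6 without WT 2, WT 3 or KO 1. ACAA1, CPT1A, HADHB and SLC25A20, named for this reason after their values were seen, lost their higher call in several of these, and ACADM lost its lower call without WT 1 (0.0575) and with the GC content and length correction (0.147). CPT2, the inner carnitine palmitoyltransferase, rose from 0.698 to 1.74 FPKM (0.69, 0.0012). ECI2 and ECH1, which handle double bonds during oxidation, rose from 4.85 to 7.43 FPKM (0.53, 0.0024) and from 15.4 to 22.0 FPKM (0.49, 0.0037). The peroxisomal oxidase ACOX2 fell from 5.18 to 3.05 FPKM (-0.61, 0.0014). With the correction CPT2 came to 0.97, ECI2 to 0.58, ECH1 to 0.32 and ACOX2 to -0.74.

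Of 16 transcription factor genes of lipid metabolism, 12 were tested, 7 rose and 2 fell, where 21.0% and 22.4% of all tested genes did. Leaving out a library gave 5 to 6 higher. The lower genes, PPARD and RXRA, named because they make up that count, numbered 0 without WT 1, WT 3, KO 2 or KO 3 and with no filter, and 1 without KO 1. SREBF1 rose from 13.1 ± 1.4 to 21.4 ± 1.3 FPKM (log2 fold change 0.67, limma adjusted p = 0.00097). SREBF2 rose from 54.2 to 75.4 FPKM (0.47, 0.00089), their escort SCAP from 21.2 to 29.3 FPKM (0.45, 0.0031) and the oxysterol receptor NR1H3 from 0.968 to 1.998 FPKM (0.61, 0.0031). PPARG was at 12 reads in WT and 9 in KO, too few to test. SCAP came to 0.28 with the GC content and length correction. Of the 52 calls in these lists, 42 remained after that correction, and 37 (without KO 2) to 47 (without WT 3) when a library was left out. None of these was called in the opposite direction.

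**Figure D5:**
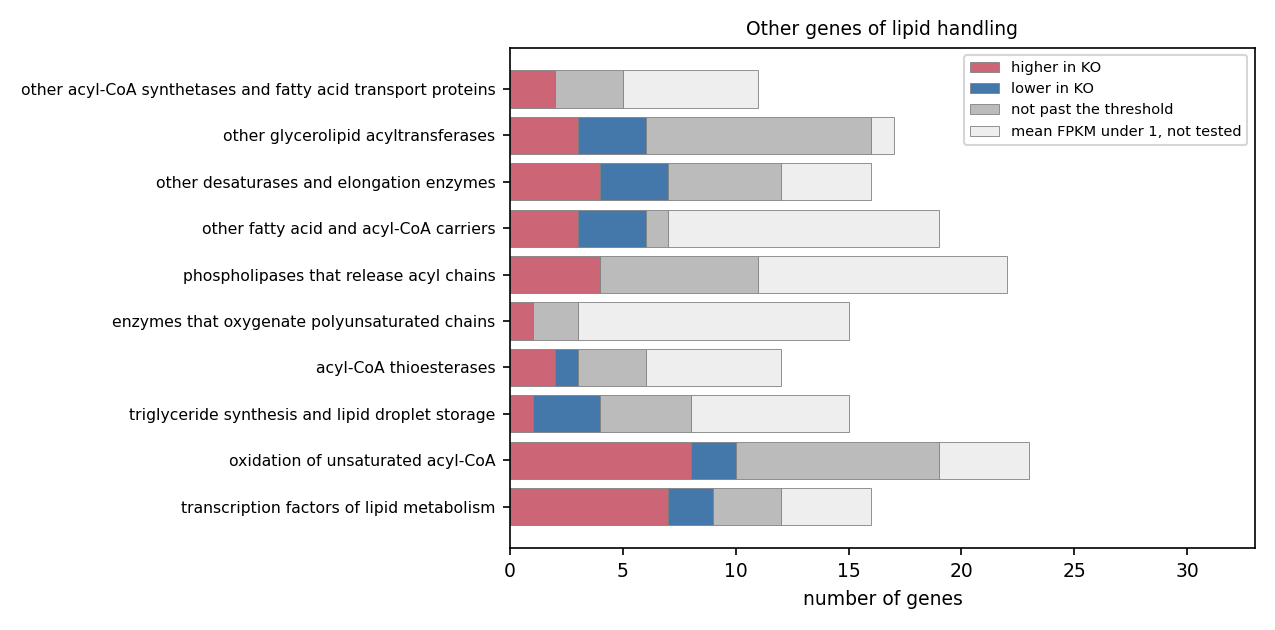
Number of genes higher in KO (red), lower (blue), not past the threshold (grey) and too low to test (pale) in each of 10 lists of other lipid genes. The oxidation list has 8 higher genes of 19 tested, a count that was 4 without WT 1 or KO 2. The transcription factor list has 7 higher genes of 12 tested. The list of phospholipases and related lipases has 4 higher and 0 lower. Over all tested genes 21.0% were higher and 22.4% lower.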

How the data were processed

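The authors deposited 1 table of FPKM values for 58735 genes in 6 libraries. RNA was column-purified and sequenced from SMARTER mRNA libraries, per the labels' protocols. No aligner or counter is named (not given in the sources used here). Mouse builds, GRCm38 and mm10, are named in the submitters' processing notes, yet all 58735 identifiers, starts and ends equal human GENCODE 29 on GRCh38, which gave positions. FPKM times gene length stepped in whole reads (100% of values above 0 within 0.02 of a read), which gave the read numbers. All 6 libraries entered limma 3.58.1 (R 4.3.3; lmFit, eBayes with trend) on log2(FPKM + 1), two-sided, with genotype as the only term, for the 12000 genes with a mean of at least 1 FPKM. P-values were adjusted by Benjamini and Hochberg over all of these. This scale understates changes of low genes. Within-library values used exact permutation tests. Libraries of a genotype differed by more than sampling noise, so none was a copy. The members and lists were chosen with earlier results of these data known. Named genes were the members, genes overlapping them, their expressed pseudogenes, and by list the up to 4 called genes of smallest adjusted p plus 10 fixed ones; the text names a part. The sum of FABP5 and FABP5P7 was an alternative chosen after seeing the data. Tests were checked on simulated data. The simulated reads for the fit over all genes had the same dispersion for every gene and no trend with GC content. They cannot show how the fit behaves under the trend of these libraries.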

Additional observations from a re-analysis of the deposited data

How the results depend on the processing

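Under 14 alternatives per tested member (13 for LPCAT3) no member changed sign. ACSL4, LPCAT1, FADS2 and FABP5 kept their call in all 14. Of 138 alternatives for the counts over all genes, members and lists together and for within-library values, 125 stayed near the main result. Near meant within 1.5 times for a count. For a within-library difference it meant the same sign and a shift below the larger SD of the genotypes. A replicate block cannot move such a difference, so its entries were near by construction. Of 40 alternatives for the counts of single lists under other filters, 31 stayed within 1.5 times and 9 did not. Of the 52 calls in the lists, 39 remained with the replicate block and 32 with the block and the correction. With a filter at a mean of 5 FPKM, which tests 7053 genes, 3203 were called, 1639 higher and 1564 lower. Members higher numbered 1 with limma-voom on recovered reads, where FADS1 was lost. Leaving out a library gave 1 to 3 members higher. With the replicate block 1 member was higher and 5 lower, and 3866 of all genes were called instead of 5207. With the replicate block and the GC content and length correction together 4 members were called, 1 higher and 3 lower, and 4216 of 11992 genes. ACSL3 (adjusted p = 0.0945), ELOVL5 (0.0816) and FADS1 (0.115) were lost. Same-numbered libraries had correlations of deviations of -0.07, -0.18 and -0.35, and differently numbered ones of -0.21 to 0.37. These deviations are centred within each genotype and carry each library's trend with GC content. They therefore cannot decide whether the replicate numbers pair the samples. The cause of these changes was not tested. Depth limits ACSL5, with 47 and 22 reads, and groups of 3 cannot give an exact p below 0.1.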
